A study of Mus musculus with 47 samples.

Results

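The 7 genes described here are the transcriptional outputs of the circadian clock that carry its rhythm to other genes: the PAR bZIP factors Dbp, Tef and Hlf, the bZIP repressor Nfil3, the E-box repressors Bhlhe40 and Bhlhe41, and the deubiquitinase gene Usp2. They were taken as a named list, matched by symbol to the Ensembl identifiers of the table, and all 7 of 7 were found among its 57180 genes. Messenger RNA of whole retinas from C57BL/6 mice, an inbred laboratory strain, was sequenced at 2 ages, 6 weeks (young) and 20 months (aged). No treatment or altered allele is named for either age, and both lived under a cycle of 12 h light and 12 h dark. Right eyes were taken from 4 mice per age every 4 h, at zeitgeber times (ZT, hours after lights on) 2, 6, 10, 14, 18 and 22, so the libraries of a group come from separate animals. The last 3 of these times lie in the dark. There were 24 young and 23 aged libraries, 4 per group except aged ZT18 with 3.

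In the circadian clock, an activator pair binds E-boxes and drives its own repressors, and E-boxes of other genes drive many output factors. DBP, TEF and HLF activate genes through D-boxes, and NFIL3 binds the same D-boxes and represses them, so the opposite timing of these factors can give targets a rhythm. BHLHE40 and BHLHE41, also called DEC1 and DEC2, bind E-boxes and repress there, and USP2 removes ubiquitin from clock proteins. The retina holds a clock of its own, and its rhythm is spread over several cell types, of which rods are the most numerous in the mouse.

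Promoters of the genes that cycled in at least 1 age in the results that follow are shown because they hold, or lack, the sites through which this network is wired. The sequences are RefSeq's for GRCm38.p6, an earlier build than the GRCm39 of the expression values. Each is the 250 bases before the gene's annotated start, 5′ to 3′ on the gene's strand, with matches to the searched motifs in capitals. Entries were found for 6 of the 7 genes, 2 of them for Tef. Bhlhe40 had none.

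Dbp, chr7:45704997-45705246, plus strand: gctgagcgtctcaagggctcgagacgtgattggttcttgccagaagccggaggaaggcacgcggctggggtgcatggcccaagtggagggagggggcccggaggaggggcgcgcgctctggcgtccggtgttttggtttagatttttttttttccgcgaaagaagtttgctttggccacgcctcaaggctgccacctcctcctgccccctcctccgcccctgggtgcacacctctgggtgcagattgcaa

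Tef, first start, chr15:81802423-81802672, plus strand: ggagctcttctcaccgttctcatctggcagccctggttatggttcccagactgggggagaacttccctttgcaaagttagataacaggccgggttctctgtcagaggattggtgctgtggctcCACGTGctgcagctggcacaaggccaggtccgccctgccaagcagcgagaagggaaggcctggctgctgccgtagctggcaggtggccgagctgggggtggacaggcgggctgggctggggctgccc

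Tef, second start, chr15:81811164-81811413, plus strand: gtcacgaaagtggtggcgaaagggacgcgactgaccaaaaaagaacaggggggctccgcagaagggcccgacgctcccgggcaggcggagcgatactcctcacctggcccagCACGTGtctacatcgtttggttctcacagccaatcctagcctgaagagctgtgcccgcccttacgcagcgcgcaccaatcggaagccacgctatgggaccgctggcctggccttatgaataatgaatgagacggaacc

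Nfil3, chr13:52981040-52981289, minus strand: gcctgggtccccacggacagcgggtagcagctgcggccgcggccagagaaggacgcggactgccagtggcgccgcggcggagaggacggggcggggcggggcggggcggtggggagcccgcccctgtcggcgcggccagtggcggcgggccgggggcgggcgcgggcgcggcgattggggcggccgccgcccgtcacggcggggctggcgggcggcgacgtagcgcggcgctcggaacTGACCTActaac

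Bhlhe41, chr6:145865421-145865670, minus strand: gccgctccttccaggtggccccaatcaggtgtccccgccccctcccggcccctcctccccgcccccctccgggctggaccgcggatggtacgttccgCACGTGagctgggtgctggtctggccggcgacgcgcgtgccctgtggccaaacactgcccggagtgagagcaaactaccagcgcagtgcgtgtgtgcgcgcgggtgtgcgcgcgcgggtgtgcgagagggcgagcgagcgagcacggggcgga

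In all, 5 motifs were searched on both strands: the E-box CACGTG, the E-prime box CACGTT, the D-box TTANGTAA, the cyclic AMP response element TGACGTCA and the ROR element core TAGGTCA. No match to 1 motif overlapped a match to another in these promoters. The E-box was found in both Tef promoters, at bases -127 to -122 and -138 to -133 from the start, and in the Bhlhe41 promoter at -153 to -148. Of 32536 promoters of this length, 6.04% held it. The Nfil3 promoter held the ROR core on the reverse strand, read as TGACCTA at -12 to -6, a motif found in 2.24% of promoters. The Hlf promoter (chr11:90390918-90391167, minus strand) held the cyclic AMP response element at -9 to -2, found in 1.56%. The E-prime box (3.87% of promoters) and the D-box (2.03%) were in none of the 7 entries. The 250 bases of Dbp and Usp2 held none of the searched motifs, which says only that these letters are not in this window. A match is a run of letters and no evidence of binding.

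Libraries held 32.0 to 55.5 M reads, the median young library 37.2 M and the median aged one 37.0 M. Levels are given in RPKM, a read count divided by exon length in kilobases and by library size in M reads, which allows genes to be compared per length. All 7 genes passed the filter of 0.5 RPKM in at least 12 libraries, each of them in all 47. Nfil3, the gene with the fewest reads by median, had 410 to 814 reads per library, and the lowest value of any gene was 194 reads, for Bhlhe40 in young ZT10 replicate 4. In bulk tissue, fewer cells of a type and less RNA per cell cannot be told apart. Of the marker lists of the retina, rod markers were the most abundant, at 13433 to 22899 RPKM summed over 8 genes, and bipolar (5 genes) and Müller glia (5 genes) markers were present in every library. Lens, blood and pigment epithelium markers were also present, at sums that varied by more than 20-fold between libraries.

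A pair of libraries stood apart, and results that rest on them are given with and without them. The pair was picked after seeing the data, and low values of these genes are among what sets it apart. Adjusted p values without the pair are therefore no independent support for results on the same genes. In young ZT10 replicate 4, Hlf was at 3.65 RPKM against 24.0 to 26.5 RPKM in the other 3 libraries of the group, and Bhlhe40 at 0.743 RPKM against 8.99 to 10.2 RPKM. Tef was at 21.9 RPKM there against 33.1 to 35.4 RPKM and Dbp at 15.3 RPKM against 31.6 to 35.5 RPKM, whereas Nfil3 (6.09 RPKM), Bhlhe41 (12.6 RPKM) and Usp2 (26.4 RPKM) were at 94.5% to 113% of the mean of the other 3. The 3 PAR bZIP transcripts and that of Bhlhe40 were thus low together in a library in which the other 3 were not. The same library had the highest rod marker sum in young (21550 RPKM) and the lowest sums of all 47 libraries for bipolar markers (25.4 RPKM, others 58.4 to 191 RPKM), Müller glia markers (89.8 RPKM, others 411 to 1018 RPKM) and microglia markers (0.229 RPKM, others 4.25 to 8.76 RPKM). Blood markers (281 RPKM, others of its group 33.6 to 60.1 RPKM) and lens markers (90.7 RPKM, others 0.317 to 31.6 RPKM) were high there. It was also the deepest library (55.5 M reads). Its RPKM summed over all genes was 324150, where all other libraries had 245274 to 281042. In aged ZT6 replicate 3, Dbp was at 5.85 RPKM against 22.6 to 27.7 RPKM in its group, the lowest Dbp value of the study. That library had the lowest Müller glia sum in aged (411 RPKM). Tef (26.2 RPKM, others 29.5 to 30.0 RPKM) and Nfil3 (5.68 RPKM, others 6.59 to 6.73 RPKM) were also below the rest of that group. So were Bhlhe40 (7.01 RPKM, others 7.94 to 14.2 RPKM) and Usp2 (18.8 RPKM, others 21.3 to 23.4 RPKM). Hlf (26.6 RPKM) and Bhlhe41 (12.3 RPKM) were within its range. The pigment epithelium sum was 21.1 RPKM there, against 38.6 to 88.6 RPKM in the others of the group.

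**Figure D1:**
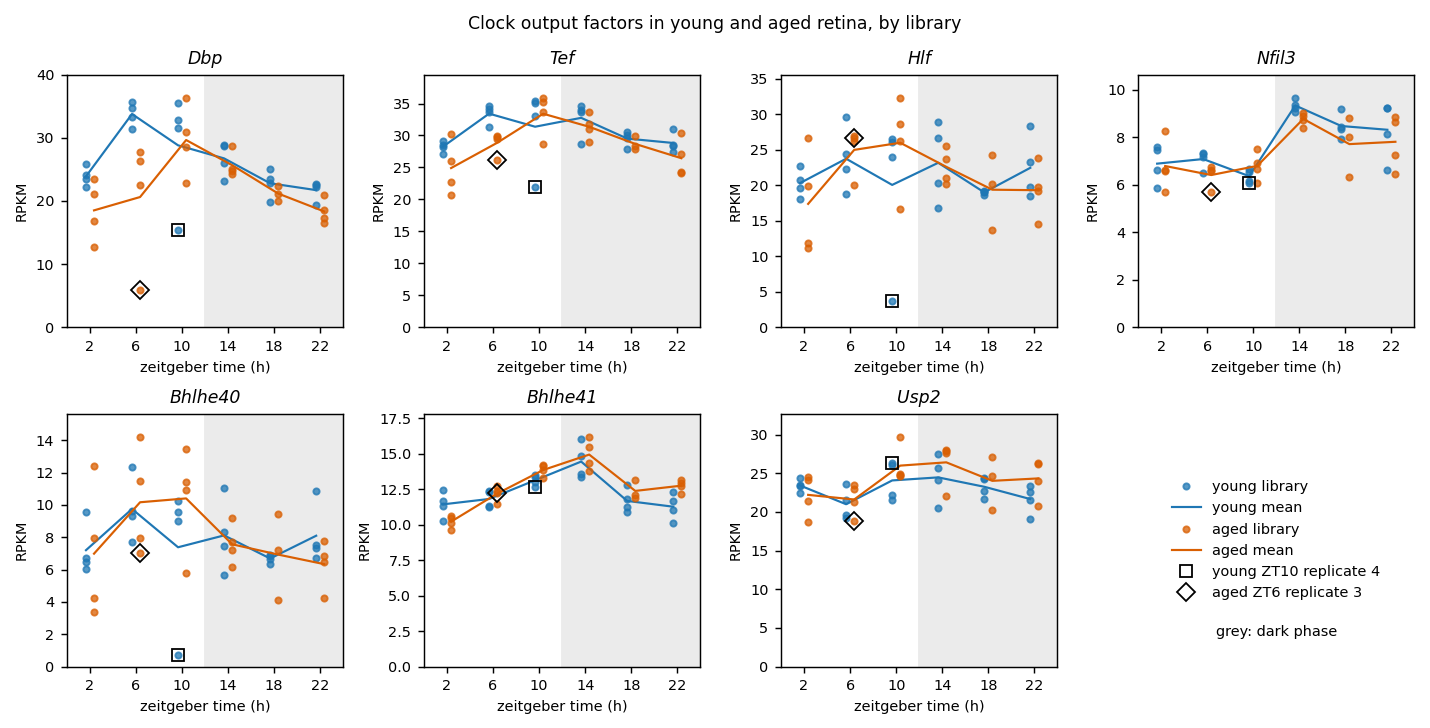
RPKM (vertical axes) of the 7 genes in each library against zeitgeber time in h (horizontal axes), young in blue and aged in orange, with lines through the group means and the dark phase in grey. The square marks young ZT10 replicate 4, with Hlf at 3.65 and Bhlhe40 at 0.743 RPKM, and the diamond aged ZT6 replicate 3, with Dbp at 5.85 RPKM.

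Of the 7 mean levels over the day, that of Dbp differed most between ages and was lower in aged. Tef was the most abundant of the 7, with 30.7 ± 3.34 RPKM in the young libraries (SD, n = 24, as for each young mean that follows) and 29.0 ± 3.85 RPKM in the aged (SD, n = 23). Dbp followed in young, with 26.3 ± 5.58 RPKM, and was at 22.4 ± 6.36 RPKM in aged. Usp2 was at 22.97 ± 2.22 and 24.1 ± 3.00 RPKM, and Hlf at 21.5 ± 5.37 and 21.7 ± 5.55 RPKM. Below these came the repressors: Bhlhe41 at 12.3 ± 1.39 and 12.7 ± 1.63 RPKM, Bhlhe40 at 7.87 ± 2.35 and 8.11 ± 3.03 RPKM, and Nfil3 at 7.74 ± 1.22 and 7.36 ± 1.12 RPKM, with Bhlhe40 and Nfil3 not separated by their spread. The 3 PAR bZIP activators thus each stood above all 3 repressors in mean RPKM at both ages.

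Dbp (ENSMUSG00000059824), the founding PAR bZIP factor, was highest in the light and low at the end of the night. In young, its libraries were at 24.1, 25.8, 22.1 and 23.5 RPKM at ZT2, at 31.4, 33.3, 34.6 and 35.7 RPKM at ZT6, and at 31.6, 35.5, 32.8 and 15.3 RPKM at ZT10. In the dark they were at 28.9, 28.8, 23.2 and 26.0 RPKM at ZT14, 23.5, 22.8, 19.8 and 25.1 RPKM at ZT18 and 22.5, 19.4, 22.3 and 22.7 RPKM at ZT22. All young ZT6 values were above every value of ZT2, ZT14, ZT18 and ZT22. The step from ZT2 to ZT6 in young, 0.49 ± 0.26 (SE, log2), did not pass (adjusted p = 0.432). The share of all genes whose times do not overlap was not computed, for this gene or those that follow. In aged, values were 23.5, 21.04, 16.8 and 12.7 RPKM at ZT2, 22.6, 27.7, 5.85 and 26.3 RPKM at ZT6 and 30.9, 36.4, 22.8 and 28.5 RPKM at ZT10. They were 24.2, 28.6, 24.7 and 25.05 RPKM at ZT14, 20.0, 22.4 and 21.1 RPKM at ZT18 and 18.5, 20.9, 16.6 and 17.3 RPKM at ZT22. The aged group mean was highest at ZT10 (29.6 RPKM) and lowest at ZT22 (18.3 RPKM), and the young one highest at ZT6 (33.8 RPKM) and lowest at ZT22 (21.7 RPKM). In the order of group means, libraries of every pair of neighbours overlapped in young, and in aged all but ZT14 above ZT18 did.

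A 24 h cosine fit to log2(RPKM + 0.5) gave Dbp a log2 amplitude of 0.26 ± 0.07 (SE) in young with a peak at 8.21 ± 1.04 h, and the adjusted p was 0.0295. In aged, the amplitude was 0.34 ± 0.13 with a peak at 12.7 ± 1.47 h and an adjusted p of 0.148. The 2 libraries that stand apart hold the lowest Dbp value of each age, so fits without them are a description and not independent support. Without them, Dbp passed at both ages. In young it had 0.34 ± 0.04 and a peak at 8.67 ± 0.38 h (adjusted p = 1.03e-06). In aged it had 0.35 ± 0.06 and a peak at 10.8 ± 0.69 h (adjusted p = 0.000572). The peak in aged was then 2.09 ± 0.79 h (SE) later. The test of a different rhythm between ages had an unadjusted p of 0.0399 without them and 0.0893 with them, and the adjusted p were 0.616 and 0.606, so neither passed. Of the fit with all libraries, the young call was lost on leaving out any 1 of young ZT6 replicates 1 to 4 (adjusted p = 0.0508, 0.0566, 0.0591 and 0.0594), ZT10 replicates 1 to 3 (0.0503, 0.0606 and 0.0531), ZT18 replicate 3 (0.0574) or ZT22 replicate 2 (0.0565). Leaving out aged ZT6 replicate 3 alone brought the aged rhythm past the threshold (adjusted p = 0.000572). With no filter on low values, the young adjusted p was 0.0738.

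Tef (ENSMUSG00000022389), which shares the D-box with Dbp, ran over the day in a like manner with smaller excursions. Young libraries were at 31.3, 34.6, 33.6 and 34.1 RPKM at ZT6 and 35.1, 35.4, 33.1 and 21.9 RPKM at ZT10, against 27.1, 29.1, 28.3 and 28.5 RPKM at ZT2. Aged libraries were at 35.2, 35.9, 28.7 and 33.7 RPKM at ZT10, against 30.2, 26.1, 22.7 and 20.7 RPKM at ZT2. The young ZT6 libraries did not overlap those of ZT2, and the aged groups of ZT2 and ZT10 overlapped. With all libraries, the young step from ZT2 to ZT6 did not pass (0.24 ± 0.10, SE, adjusted p = 0.300). Tef passed the rhythm test in aged, with a log2 amplitude of 0.19 ± 0.04 (SE) at 12.0 ± 0.85 h (adjusted p = 0.00744), and not in young, with 0.10 ± 0.04 at 10.3 ± 1.73 h (adjusted p = 0.278). Without the 2 libraries, or without young ZT10 replicate 4 alone, it passed in young too, with 0.15 ± 0.02 (adjusted p = 0.000229), so the difference in calls between ages rested on that library. With pigment epithelium and lens marker levels as covariates, the aged amplitude stayed about as large, at 0.18 ± 0.05, and the adjusted p was 0.0802. With bipolar and rod marker levels it was 0.12 ± 0.03 and the peak moved to 8.95 ± 1.06 h (adjusted p = 0.00689).

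Hlf (ENSMUSG00000003949), the third PAR bZIP factor, spread widely between libraries of a group. Young libraries ran from 3.65 to 29.6 RPKM and aged ones from 11.2 to 32.4 RPKM. At aged ZT2 alone the libraries were at 26.6, 19.8, 11.9 and 11.2 RPKM. In the order of its group means, libraries of all neighbours overlapped at both ages. The fitted log2 amplitude was 0.09 ± 0.16 (SE) in young (adjusted p = 0.918) and 0.27 ± 0.10 in aged with a peak at 10.3 ± 1.42 h (adjusted p = 0.139). The young amplitude was 0.14 ± 0.06 without the 2 libraries (adjusted p = 0.203). Weighting each library by its quality brought Hlf past the threshold, with 0.18 ± 0.05 in young (adjusted p = 0.0236) and 0.26 ± 0.07 in aged (adjusted p = 0.0181), in a fit that called 46.1% and 39.3% of all genes.

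Nfil3 (ENSMUSG00000056749), the repressor at the D-box, was high in the dark, with its rise at the onset of darkness. Young libraries were at 6.14, 6.66, 6.55 and 6.09 RPKM at ZT10 and at 9.24, 9.07, 9.67 and 9.35 RPKM at ZT14, with no overlap. Aged libraries were at 6.67, 7.50, 6.90 and 6.09 RPKM at ZT10 and at 8.91, 8.74, 9.03 and 8.40 RPKM at ZT14, again with no overlap. The young step was 0.52 ± 0.10 on the log2 scale (SE, adjusted p = 0.00152), and 4.3% of all tested genes passed for that step. The aged step was 0.35 ± 0.10 (adjusted p = 0.0694, with 1.79% of genes passing) and passed without the 2 libraries (adjusted p = 0.0220, 8.11% of genes). Levels then stayed between 6.32 and 9.25 RPKM through ZT18 and ZT22, and the lowest group mean was at ZT10 in young (6.36 RPKM) and ZT6 in aged (6.41 RPKM). All neighbours in the order of group means overlapped at both ages.

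Nfil3 passed the rhythm test at both ages, with log2 amplitudes of 0.21 ± 0.05 (SE) at 17.6 ± 0.84 h in young (adjusted p = 0.00610) and 0.19 ± 0.05 at 16.9 ± 0.99 h in aged (adjusted p = 0.0369). The aged call was lost on leaving out any 1 of aged ZT2 replicates 2 and 4 (adjusted p = 0.0520 and 0.0598), ZT6 replicate 1 (0.0521), ZT14 replicates 1 to 4 (0.0664, 0.0672, 0.0666 and 0.0625) and ZT18 replicates 1 and 2 (0.0512 and 0.0726), and with no filter on low values (0.0687). Pigment epithelium markers (7 genes, summed) were also higher late in the dark in young and throughout the dark in aged. In young, their group means were 24.2 to 38.1 RPKM in the light, 40.1 RPKM at ZT14, 109 RPKM at ZT18 and 77.03 RPKM at ZT22. In aged they were 26.8 to 47.8 RPKM in the light and 135 to 162 RPKM in the dark. The part of this tissue in the Nfil3 rhythm was not tested. With pigment epithelium and lens marker levels as covariates, the young Nfil3 amplitude was about as large, at 0.20 ± 0.06, with an adjusted p of 0.0780, and the aged one was 0.08 ± 0.04 (adjusted p = 0.672). With bipolar and rod marker levels as covariates, the amplitude was 0.19 ± 0.05 in young (adjusted p = 0.00850) and 0.05 ± 0.05 in aged (adjusted p = 0.736).

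Bhlhe41 (ENSMUSG00000030256), the E-box repressor also known as DEC2, peaked around the onset of darkness at both ages. Young libraries were at 13.5, 13.01, 13.4 and 12.6 RPKM at ZT10, 16.05, 13.6, 14.8 and 13.4 RPKM at ZT14 and 12.8, 11.8, 11.2 and 10.9 RPKM at ZT18. Aged libraries were at 10.1, 10.6, 10.5 and 9.63 RPKM at ZT2, 12.7, 11.5, 12.3 and 12.4 RPKM at ZT6, 14.1, 14.2, 13.3 and 13.9 RPKM at ZT10 and 16.2, 14.3, 13.8 and 15.5 RPKM at ZT14. They were at 13.1, 12.1 and 11.9 RPKM at ZT18 and 13.2, 12.95, 12.2 and 12.7 RPKM at ZT22. In aged, no ZT2 library reached the lowest of any other time, and the share of all genes with such a gap was not computed. In the order of group means, aged ZT10 did not overlap ZT22, aged ZT6 did not overlap ZT2 and young ZT10 did not overlap ZT6, and all other neighbours overlapped.

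The Bhlhe41 log2 amplitude was 0.16 ± 0.03 (SE) at 12.3 ± 0.80 h in young (adjusted p = 0.00428) and 0.20 ± 0.03 at 13.6 ± 0.66 h in aged (adjusted p = 0.000842). The peaks moved with the scaling, to 13.5 ± 0.87 h and 14.9 ± 0.92 h with median-ratio scaling. It was the single member called at both ages with pigment epithelium and lens levels as covariates (adjusted p = 0.00795 and 0.0187), and it was also called at both ages with bipolar and rod levels (adjusted p = 0.00394 and 0.0217) and on leaving out any 1 library. A pair of its steps passed: a fall by 0.29 from ZT14 to ZT18 in young (adjusted p = 0.0398, 0.202% of genes) and a fall by 0.31 from ZT22 to ZT2 in aged (adjusted p = 0.00784, 1.12% of genes). The young step was lost without any 1 of young ZT14 replicates 1 and 3 (adjusted p = 0.340 and 0.122) and ZT18 replicates 2, 3 and 4 (0.0992, 0.167 and 0.240), and the aged step without aged ZT2 replicate 4 (0.0551). Median-ratio scaling gave adjusted p of 0.484 and 0.0516 for these steps, and for the young step quantile normalization gave 0.307 and moderation without a trend 0.0545. With the Nfil3 step, 2 of 42 steps of the 7 genes passed in young and 1 of 42 in aged, where 1.04% and 0.652% of all gene steps did.

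Bhlhe40 (ENSMUSG00000030103), its paralog DEC1, did not cycle by the test at either age. Young libraries ran from 0.743 to 12.4 RPKM and aged ones from 3.35 to 14.2 RPKM, and at aged ZT2 they were at 12.4, 7.95, 4.26 and 3.35 RPKM. The fitted log2 amplitudes were 0.12 ± 0.18 (SE) in young (adjusted p = 0.899) and 0.36 ± 0.13 in aged with a peak at 9.08 ± 1.42 h (adjusted p = 0.149). The young value rested on young ZT10 replicate 4. It was 0.21 ± 0.07 without the 2 libraries (adjusted p = 0.0781), and weighting libraries by their quality brought Bhlhe40 past the threshold, with 0.24 ± 0.06 in young (adjusted p = 0.0107) and 0.40 ± 0.10 in aged (adjusted p = 0.0108). Usp2 (ENSMUSG00000032010) had the smallest amplitude of the 7 at both ages: the 24 young libraries had a median of 23.02 RPKM between 19.1 and 27.5 RPKM, and the 23 aged ones of 24.6 RPKM between 18.7 and 29.7 RPKM. Its amplitudes were 0.07 ± 0.04 in young (adjusted p = 0.487) and 0.13 ± 0.05 in aged (adjusted p = 0.152). For both genes, libraries of all neighbours in the order of group means overlapped at both ages.

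In all, 3 of the 7 genes were rhythmic in young (Dbp, Nfil3 and Bhlhe41) and 3 in aged (Tef, Nfil3 and Bhlhe41), where 19.7% and 14.4% of all tested genes were. Both ages shared 2, Nfil3 and Bhlhe41, against 7.56% of all genes. Without the 2 libraries, Dbp, Tef, Nfil3 and Bhlhe41 were rhythmic at both ages, with 34.1% and 27.4% of all genes and 19.4% in both. With pigment epithelium and lens levels as covariates, Dbp and Bhlhe41 were called in young and Bhlhe41 in aged, where 12.4% and 1.71% of all genes were. With time as a factor of 6 levels in place of the cosine, Nfil3 and Bhlhe41 were called in young and Bhlhe41 in aged (13.7% and 6.55% of all genes). With bipolar and rod levels, all 7 were called in young, where 53.6% of all genes were, and Tef, Hlf, Bhlhe40 and Bhlhe41 in aged, where 18.9% were. In that fit Hlf had log2 amplitudes of 0.34 ± 0.05 at 5.36 ± 0.60 h in young and 0.22 ± 0.05 at 5.75 ± 0.69 h in aged, and Bhlhe40 of 0.44 ± 0.08 at 5.402 ± 0.68 h and 0.35 ± 0.06 at 5.196 ± 0.49 h. The marker levels come from the same libraries and themselves varied with time, so these fits are given as values only. The median amplitude of the 7 was 0.12 in young and 0.20 in aged, against 0.13 and 0.15 over all tested genes, and without the 2 libraries 0.16 and 0.21, against 0.12 and 0.14. None of the 7 passed the test of a different rhythm between ages, for which 0.00653% of genes passed, and 0 did at an unadjusted p under 0.05 either, where 7.75% of genes did.

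**Figure D2:**
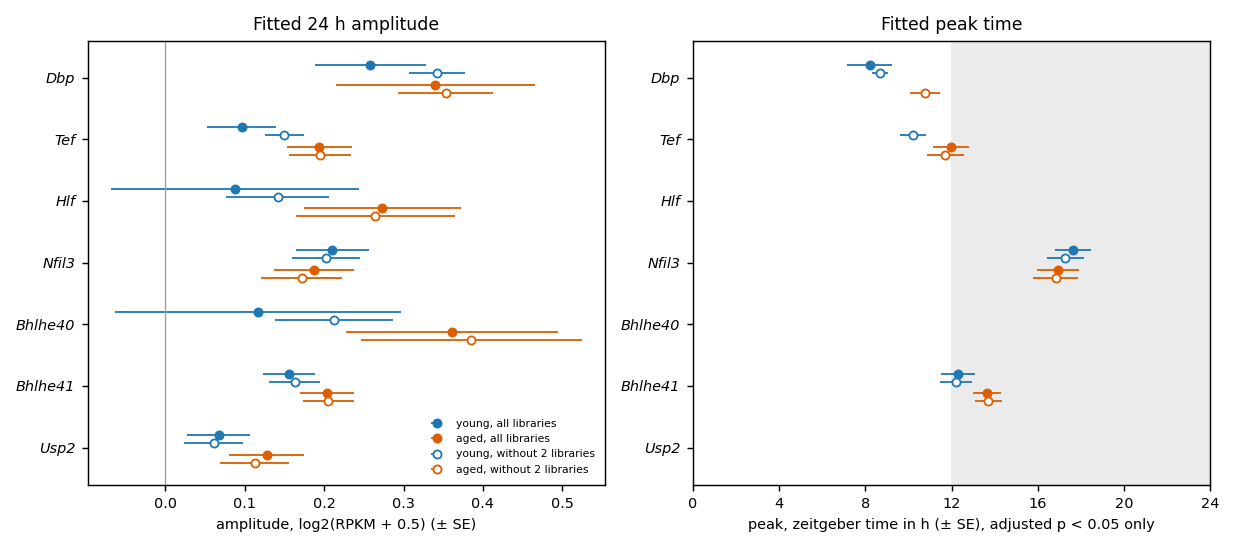
Fitted 24 h log2 amplitude ± SE (left) and peak in zeitgeber time, h ± SE (right, drawn only where the adjusted p was under 0.05), by gene, for young (blue) and aged (orange). Filled symbols use all libraries and open ones leave out the pair that stands apart: Dbp and Tef gain a called peak at both ages only in the open symbols, and Nfil3 and Bhlhe41 have one at both ages in both fits.

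The comparison of ages over the whole day asked whether these factors were higher or lower in old retinas. None of the 7 passed both the adjusted p of 0.05 and the 1.5-fold minimum, and none the adjusted p alone, where 0.49% and 4.24% of all tested genes did. Dbp was nearest, with a log2 difference (aged minus young) of -0.27 ± 0.11 (SE, 95% interval -0.50 to -0.05, adjusted p = 0.197), and it was the single member at an unadjusted p under 0.05, as were 15.7% of all genes. Tef followed with -0.09 ± 0.04 (adjusted p = 0.326). The other 5 lay between -0.06 (Nfil3, interval -0.15 to 0.02) and 0.06 (Usp2, interval -0.02 to 0.15). The intervals of Hlf, -0.25 to 0.31, and Bhlhe40, -0.30 to 0.37, were several times wider than that of Bhlhe41, -0.02 to 0.10. The median of the 7 was 0.03 and that of all genes -0.02. Without the 2 libraries the median of the 7 turned to -0.07, with Hlf at -0.09 ± 0.09 and Bhlhe40 at -0.07 ± 0.11, and that of all genes was -0.03. In that fit Dbp (-0.23 ± 0.05, adjusted p = 0.00207) and Tef (-0.11 ± 0.03, adjusted p = 0.0202) were lower in aged, and 9.33% of all genes were. Without young ZT10 replicate 4 alone both also passed (adjusted p = 0.0375 and 0.0208, with 6.1% of all genes lower). With bipolar and rod levels as covariates, Hlf (0.20 ± 0.05, adjusted p = 0.00939) and Bhlhe40 (0.23 ± 0.07, adjusted p = 0.0298) were called higher in aged instead, as were 9.43% of all genes.

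At single times, the ages differed for Dbp at ZT6, where the 4 young libraries (31.4 to 35.7 RPKM) lay above all 4 aged ones (5.85 to 27.7 RPKM). The log2 difference was -0.91 ± 0.26 (SE) with an adjusted p of 0.0439, and 3.12% of all genes passed there, 2.45% as lower in aged. No member passed at the other times, where 0.144% (ZT2), 0.496% (ZT10), 0.248% (ZT14), 0.255% (ZT18) and 0.17% (ZT22) of genes did. It rested largely on aged ZT6 replicate 3: without that library the difference was -0.40 (adjusted p = 0.534), although the groups still did not overlap. Without both libraries it was -0.40 ± 0.13 (adjusted p = 0.139). The call was also lost without any 1 of young ZT6 replicates 1 to 4 (adjusted p = 0.0719, 0.105, 0.109 and 0.0964). Among the other times, leaving out young ZT2 replicate 4 (0.0500), ZT14 replicate 4 (0.0500) or ZT22 replicate 1 (0.0502), or aged ZT10 replicate 4 (0.0502), ZT14 replicate 1 (0.0500) or ZT14 replicate 4 (0.0505) put it just over the threshold, and testing without a filter on low values gave 0.0816.

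Groups of the ages also failed to overlap for Tef at ZT6, with 31.3 to 34.6 RPKM in young and 26.2 to 30.0 RPKM in aged, and for Nfil3 at ZT14, with 9.07 to 9.67 RPKM in young and 8.40 to 9.03 RPKM in aged. Neither passed the test, with log2 differences of -0.21 ± 0.10 (SE, adjusted p = 0.259) and -0.09 ± 0.10 (adjusted p = 0.999). Of all genes, 6.09% had aged libraries wholly below young ones at ZT6 and 1.7% at ZT14. At ZT2, all 7 genes had a lower mean in aged, with a median of -0.18, where 63.2% of all genes were lower and their median was -0.05. At ZT10, none of the 7 was lower, with a median of 0.11, against 35.9% of all genes and a median of 0.08. That count rested on young ZT10 replicate 4: without the 2 libraries, Dbp (-0.18), Tef (-0.05) and Hlf (-0.01) were lower in aged, the median of the 7 was 0.05, and 53.9% of all genes were lower, with a median of -0.01. The test of an age by time interaction passed for none of the 7 and for 0 of 15321 genes with limma, and for 0 with limma voom on reads recovered from the RPKM values. At an unadjusted p under 0.05 it held for 735 genes (4.8%). Among them was Bhlhe41 (adjusted p = 0.838), whose aged level was lower at ZT2 (-0.15 ± 0.07) and higher at ZT22 (0.17 ± 0.07).

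**Figure D3:**
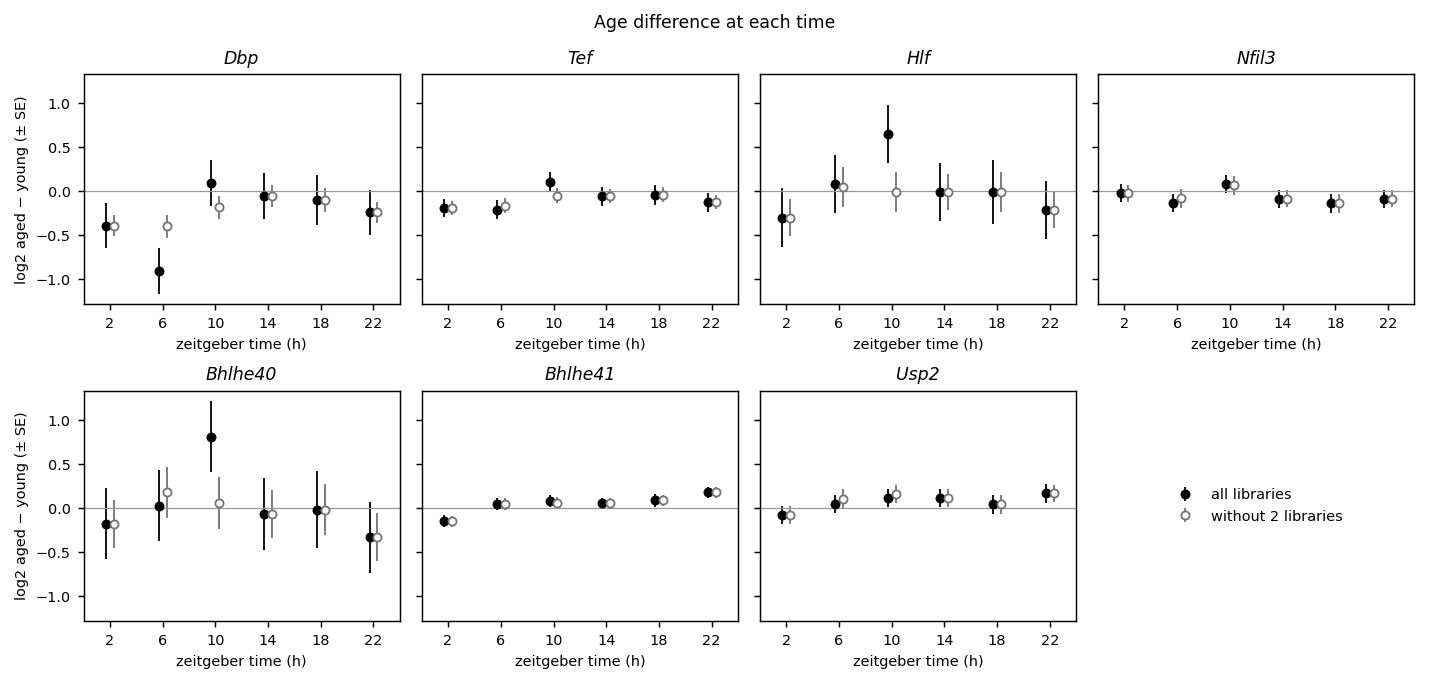
Log2 difference in RPKM, aged minus young ± SE (vertical axes), at each zeitgeber time in h (horizontal axes) for each gene, with all libraries (black) and without the pair that stands apart (grey, open). Dbp at ZT6 goes from -0.91 to -0.40, and the positive values of Hlf and Bhlhe40 at ZT10 are near 0 without the 2 libraries.

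Within groups, the 7 genes split into a set that rose and fell together from library to library and a set that did not. Over 47 libraries, as deviations of log2(RPKM + 0.5) from the group mean, Hlf and Bhlhe40 had a Pearson r of 0.96 and a Spearman rho of 0.92. Permutation within groups with 100000 draws gave p = 1e-05 for each, the smallest it can give, and an adjusted p of 4.4e-05 over 35 relations. Bhlhe40 and Tef had r = 0.90 (rho 0.80), Tef and Hlf r = 0.88 (rho 0.78), and Dbp and Tef r = 0.69 (rho 0.82), with the same p. Leaving out the 2 libraries farthest from the median of the first gene, r was 0.93 for Hlf and Bhlhe40, 0.83 for Tef and Bhlhe40, 0.80 for Tef and Hlf and 0.74 for Dbp and Tef. Of 21 pairs, 7 passed by Pearson r: all 6 among Dbp, Tef, Hlf and Bhlhe40, and Nfil3 with Bhlhe41 (r = 0.42, rho = 0.37, adjusted p = 0.0211, r = 0.35 without the 2 farthest). By rank, Nfil3 with Bhlhe41 did not pass (adjusted p = 0.057), and all 6 pairs among the first 4 genes did. No pair that joins one of those 4 genes to Nfil3, Bhlhe41 or Usp2 passed.

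The same 4 genes ran against the rod marker level. The mean log2 level of 8 rod markers had r = -0.86 with Bhlhe40 (rho -0.90), -0.85 with Hlf (rho -0.94), -0.83 with Tef (rho -0.79) and -0.52 with Dbp (rho -0.71), with adjusted p of 4.4e-05, 4.4e-05, 4.4e-05 and 0.00016. Without the 2 libraries farthest in rod level, r was -0.87, -0.90, -0.78 and -0.43. For Nfil3, Bhlhe41 and Usp2 it was -0.11, -0.19 and 0.30, and none passed (adjusted p = 0.623, 0.283 and 0.193). By Pearson r, the bipolar marker level passed with Tef (r = 0.69, rho 0.47, adjusted p = 0.0116, r = 0.45 without the 2 farthest) and with none of the other 6. By rank it also passed with Dbp (rho 0.56, adjusted p = 0.0036), where r was 0.50 (adjusted p = 0.0767). RPKM is relative to the library's total. The share of all genes with such relations, to markers or to each other, was not computed. They are therefore not shown to be particular to these 4 genes. The part of cell makeup in these relations was not tested.

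**Figure D4:**
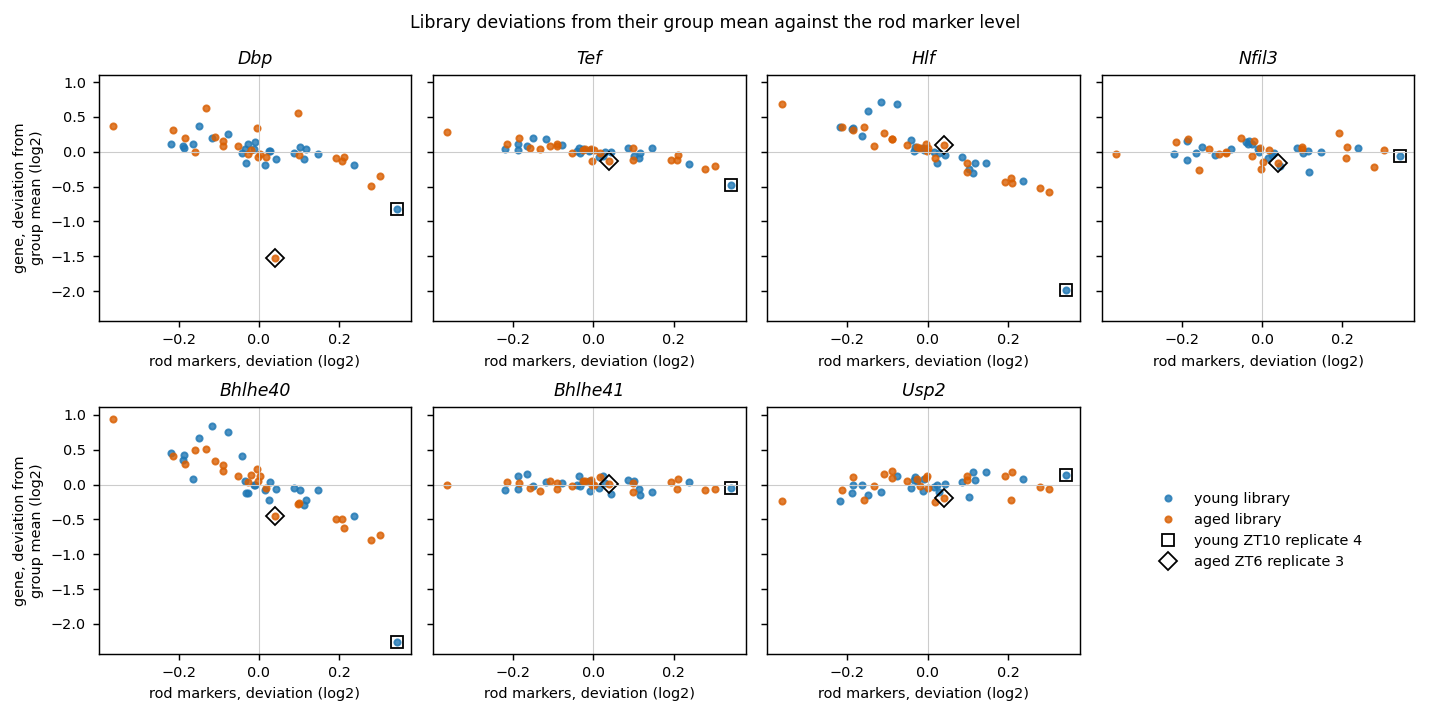
Deviation of each gene's log2(RPKM + 0.5) from its group mean (vertical axes) against that of the mean log2 level of 8 rod markers (horizontal axes), 1 point per library, young in blue and aged in orange. Hlf, Bhlhe40 and Tef slope down (r -0.85, -0.86 and -0.83) and Nfil3, Bhlhe41 and Usp2 do not (r -0.11, -0.19 and 0.30).

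Over the 12 group means, which is a description and not a test, the patterns of Hlf and Bhlhe40 had r = 0.94 and those of Dbp and Tef r = 0.88. Bhlhe41 and Usp2 had r = 0.77, although Usp2 passed the rhythm test at neither age with all libraries and no covariates. With bipolar and rod levels as covariates it was called in young (adjusted p = 0.0365). These were 0.91, 0.95 and 0.78 without the 2 libraries. Other pairs moved more: Dbp had r = 0.31 with Hlf and 0.33 with Bhlhe40, and 0.86 and 0.81 without the 2 libraries, and its r with Nfil3 went from 0.07 to -0.21. The genes whose group means were most like each member, by Pearson r over the same 12 groups, were Tbc1d17 for Dbp (0.97), Ap1m1 for Tef (0.95), Arsb for Hlf (0.98), Rnf145 for Nfil3 (0.95), Tvp23a for Bhlhe40 (0.98), Proser2 for Bhlhe41 (0.93) and Srp68 for Usp2 (0.88). Next came Dctn2 and Appl2 for Dbp (both 0.96), Rabl6 and Ldb1 for Tef (0.95 and 0.94), and Pax6, a homeobox factor of inner retinal neurons, and Appbp2 for Hlf (0.98 and 0.97). For Nfil3 these were the histone demethylase gene Kdm6b (0.95) and the lactate transporter gene Slc16a3 (0.95), for Bhlhe40 Tsc22d1 (0.98) and Pkn2 (0.97), for Bhlhe41 Gnpat (0.91) and Prickle1 (0.89), and for Usp2 Max (0.87) and Cnksr3 (0.84). Without the 2 libraries, r fell to 0.81 for Dctn2, 0.75 for Pkn2 and 0.78 for Max, and was at least 0.86, rounded, for each of the other genes named here.

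Among 14 other clock genes, the upstream layer that drives these outputs, none passed for age, where 4.24% of all tested genes did. Rhythms were called for 5 in young retinas (19.7% of all genes), for 7 in aged ones (14.4%) and for 4 at both ages (7.56%). The 4 with the smallest p in young were Rorb, a nuclear receptor (log2 amplitude 0.51 ± 0.04, SE, peak 18.5 ± 0.31 h), the repressor genes Per1 (0.26 ± 0.05, 15.1 ± 0.79 h) and Cry1 (0.14 ± 0.03, 14.5 ± 0.93 h), and Per2 (0.29 ± 0.08, 14.5 ± 1.01 h), with adjusted p of 5.03e-08, 0.00362, 0.0137 and 0.0249. The fitted young peaks of Dbp (8.21 h) and Bhlhe41 (12.3 h) lay before those of Per1, Per2 and Cry1, and that of Nfil3 (17.6 h) after them, an order that was not tested. Of 13 known outputs and relatives, such as Wee1, the Hes and Hey repressors and the C/EBP factors, 12 were tested. None passed for age or for rhythm in young, against the same 4.24% and 19.7% of all genes. In aged, where 14.4% of all genes were rhythmic, 1 was: Usp21, a deubiquitinase gene related to Usp2, with 0.18 ± 0.05 at 17.97 ± 0.98 h (adjusted p = 0.0351).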

How the data were processed

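Retinal messenger RNA was captured on poly-T beads and copied into cDNA from random hexamer primers, per the labels' protocols. Named in the submitters' processing notes are FastQC 0.23.4, HISAT2 2.2.1, Subread 2.0.6 and the build GRCm39, without their roles. Neither annotation release nor strand setting is given in the sources used. RPKM values were deposited by the authors, 1 column per library, for 57180 genes. Of the columns, 47 were used and 1 that matched no sample was not. Symbols came from GENCODE M21, an earlier build, used for names and exon lengths (51884 identifiers matched).

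RPKM values are not counts, so log2(RPKM + 0.5) was tested in R 4.3.3 with limma 3.58.1 (moderated with a trend, Benjamini-Hochberg adjustment) over 15321 genes that reached 0.5 RPKM in 12 or more libraries. Fold changes on this scale understate those of low genes. The age term came from a model with time as a factor, and ages at each time, steps between neighbouring times and the interaction from a fit of 12 group means. Rhythm was tested in each age by the cosine and sine of a 24 h period, and its difference by their products with age, with delta-method errors for amplitude and peak. Per the labels the authors used edgeR, MetaCycle and CircaCompare, which were not used here. Low values are whole multiples of 1 read, which gave library totals and, within 0.01 of a whole number, reads of 37321 of 37323 genes above 0, partly by choice of exon length; limma voom on them called 619 genes for age against 649. Scripts were tested on simulated data.

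The members and lists were chosen with earlier results of these data known. Named genes were all members, the 3 most alike in pattern per member, 4 clock genes with the smallest p in young, and related genes that passed. Alternatives tried other filters, pseudocounts, scalings, weights, moderation and rhythm terms, a replicate block, and each library left out in turn. Removing 2 libraries together, voom and both pairs of marker covariates were chosen after seeing the data.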

Additional observations from a re-analysis of the deposited data

Results flagged for a closer look

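In groups of 4 libraries, a value was singled out where its gap to the nearest other library exceeded 0.829 of the group's range (Dixon's 95% limit). Of 77 groups screened, 9 were singled out, where chance gives about 5%, or 3.9. Young ZT10 replicate 4 was low for Tef (21.9 RPKM), Hlf (3.645 RPKM) and Bhlhe40 (0.7428 RPKM). Aged ZT6 replicate 3 was low for Tef (26.2 RPKM) and Nfil3 (5.676 RPKM), while its Dbp value did not reach the limit. The others were Dbp in young ZT22 replicate 2 (19.39 RPKM, low), Hlf in aged ZT6 replicate 4 (20.11 RPKM, low), and Usp2 in aged ZT10 replicate 1 (29.71 RPKM, high) and aged ZT14 replicate 1 (22.11 RPKM, low).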

How the results depend on the processing

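No result changed direction while past the threshold. Of the called peak times, some moved by more than their SE. That of Tef in aged, 12.0 h, was 8.95 h with bipolar and rod covariates. That of Nfil3 in aged, 16.9 h, was 18.2 h with median-ratio scaling and 18.3 h with quantile normalization, and 18.5 h and 12.6 h with bipolar and rod or pigment epithelium and lens covariates, where the rhythm was not called. That of Bhlhe41 in young, 12.3 h, was 13.5 h with median-ratio scaling, 13.2 h with quantile normalization and 13.5 h with pigment epithelium and lens covariates, and in aged, 13.6 h, it was 14.9 h with median-ratio scaling and 12.9 h with bipolar and rod covariates. Those of Dbp and Nfil3 in young moved by less. The count of members called for age with a fold over 1.5 and of members with a different rhythm was 0 in every alternative. The count with an age difference at a single time, 1, was 0 with no filter and without both libraries that stand apart, 4 with array weights and 2 with bipolar and rod covariates, and 0 to 1 over single libraries left out. The count with an age difference over the day at the adjusted p alone, 0, was 2 with array weights, without both libraries and with bipolar and rod covariates, and 0 to 2 over single libraries left out. An interaction was called for 1 member with array weights and 0 otherwise. Rhythmic members in young, 3, were 6 with array weights, 7 with bipolar and rod covariates and 2 to 4 over single libraries left out. Those in aged, 3, were 6 with array weights, 1 with time as a factor, 1 with pigment epithelium and lens covariates and 2 to 4 over single libraries left out. Called steps in young, 2, were 1 with median-ratio scaling, quantile normalization, no trend in the moderation, or pigment epithelium and lens covariates, 5 with array weights, 4 without both libraries and 1 to 2 over single libraries left out. Called steps in aged, 1, were 2 with the stricter filter and with quantile normalization, 3 with the replicate block, 13 with array weights, 4 without both libraries, 8 with bipolar and rod covariates, 0 with pigment epithelium and lens covariates and 0 to 3 over single libraries left out. The cause of these changes was not tested. Shares of all genes called for steps or at single times are not given here for most alternatives. The member counts of steps and single times alone therefore do not set the members apart from other genes.

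Replicate numbers are shared between ages and were used only in the replicate block. Deviations of same-numbered libraries had r from -0.49 to 0.43, over 0.1 in 10 of 23 pairs, and from 0.10 to 0.25 at ZT22. Of 23 young libraries, 7 had their highest r with their own number. Deviations within a group sum to 0, so these r cannot show whether a number marks a shared batch. The block moved the aged steps from 1 to 3 and left the other counts as they were. Over all tested genes, 649 differed with age at the adjusted p alone, against 2397 with array weights, 2532 without both libraries, 2069 with bipolar and rod covariates and 388 with pigment epithelium and lens covariates. Rhythmic genes in young, 3024, were 7069, 5201, 8213 and 1902 in these, and those in aged, 2207, were 6023, 4189, 2900 and 262, and 1004 with time as a factor. Genes that differed at ZT6, 478, were 273 with median-ratio scaling, 210 without both libraries, 2374 with bipolar and rod covariates and 203 with pigment epithelium and lens covariates. An interaction was called for 0 genes, and for 1597 with array weights. Scaling moved the median age difference of all genes from -0.02 to 0.00 at most. With 4 libraries a group, the SE of a single-time age difference ran from 0.07 for Bhlhe41 to 0.41 for Bhlhe40 on the log2 scale, and was 0.27 for Bhlhe40 without both libraries.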
